A study of Homo sapiens with 6 samples.

Results

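Centromere, centrosome and kinesin genes were examined in the long-read edits of human HEK293T cells. Members were the protein-coding genes of GENCODE release 44 whose name begins with CENP, or with CEP or KIF followed by a digit, together with KIFC1 and KIFC3. The annotation held 104 such genes, and 72 of them, with 90 isoforms, had a listed edit in at least 1 library, of 7469 protein-coding genes and 9577 isoforms with one. Listed members were 17 of 25 CENP genes, 30 of 38 CEP genes and 25 of 41 KIF genes. The other 32 genes, among them CENPT, CEP192, KIF5A and KIF5C, had no listed edit in any library. Of the 72 members, 46 were listed in all 6 libraries and 8 in only 1. No single site was in all 6, and the authors had removed edits found in all of their replicates and samples.

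INSCRIBE marks the RNAs near an RNA-binding protein in fixed cells: a rabbit antibody to the protein recruits Apo1-Nb, a purified fusion of the cytidine deaminase APOBEC1 with a nanobody, which converts nearby cytosines (C) to uracils. RBFOX2-INSCRIBE, with 2 libraries, used an antibody against RBFOX2, a splicing factor that recognises UGCAUG. The enzyme-only control (2 libraries, numbered replicate 2 and replicate 3) received Apo1-Nb without the antibody, and the buffer-only control (2 libraries) received neither. All libraries came from 1 unmodified line, written HEK293T in the titles and HEK293XT in the cell line field, an immortalised line from human embryonic kidney, and replicates were made on separate slides, so p-values cover the spread between slides of 1 line. The deposited value is the edited fraction of an isoform's reads at each position.

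The centromere is the chromosomal site that carries nucleosomes with CENPA, a histone H3 variant, and on it the constitutive centromere-associated network builds the base of the kinetochore, which captures microtubules in mitosis. The centrosome is formed by a pair of centrioles and their surrounding material, organises microtubules, and gives rise to the base of the cilium. Kinesins are motors that carry cargo along microtubules or organise the spindle and the site of cell division.

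The libraries differed in how much editing they held, and this touches every comparison. Distinct edited Cs in protein-coding genes numbered 204621 and 209296 in RBFOX2-INSCRIBE, 89232 and 157423 with the enzyme alone, and 77462 and 76016 with buffer alone. The number of reads is not given, so the depth behind each site is unknown. In bulk libraries, fewer cells with a transcript and less of it per cell cannot be told apart, and the number of edited Cs of a gene also depends on its reads. Of the markers of the line, NEFL, NEFM, INA and VIM had edits and ENO2 was at 0, and ALB, HBB, PTPRC, COL1A1 and EPCAM, markers of liver, blood and other cells, were at 0 in all 6 libraries.

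The sites below show where in member RNAs editing lay beside UGCAUG. They are the 6 occurrences in member exons with most edited Cs within 50 nt in both RBFOX2-INSCRIBE libraries, by the lower of the pair and, where that was tied, by their sum, with 12 bases of the genome (hg38, transcript strand, T for U) on each side and UGCAUG in capitals.
KIF5B 3′ UTR, exon 26, chr10:32009049-32009078, minus strand: tttaagttaactTGCATGttgtaaatgcgt
CENPK coding sequence, exon 10, chr5:65521474-65521503, minus strand: acctgataacacTGCATGaaatgttagagg
CEP57L1 3′ UTR, exon 11, chr6:109163858-109163887, plus strand: tgtcattgtgtaTGCATGctttataataaa
CEP97 3′ UTR, exon 11, chr3:101767293-101767322, plus strand: tgtaacattgaaTGCATGttaaataaaaat
CENPF coding sequence, exon 12, chr1:214640593-214640622, plus strand: gttaccaagactTGCATGccgaatatgaga
CENPF coding sequence, exon 15, chr1:214651752-214651781, plus strand: aagagcctagatTGCATGcacaaagaccag
At the KIF5B site, 7 and 8 of the 10 Cs within 50 nt were edited in RBFOX2-INSCRIBE, against 2 and 0 with the enzyme alone and 0 and 0 with buffer alone. At the CENPK site, 5 and 9 of 15 Cs were edited, against 1 and 0 with the enzyme alone and 1 and 0 with buffer alone. At these sites every RBFOX2-INSCRIBE library lay above every control library. The CEP57L1 site had 5 and 3 of 12 Cs edited, and the CEP97 site had 2 and 5 of 13, with 0 in all 4 control libraries at either site. The CENPF sites were less separated. At the exon 12 site, 4 and 2 of 22 Cs were edited in RBFOX2-INSCRIBE, 1 and 2 with the enzyme alone and 2 and 0 with buffer alone, and at the exon 15 site, 2 and 4 of 12 Cs were edited, against 0 and 3 and 1 and 1. At the tied lower count of 2, a pair of CEP43 sites and a KIF20A site, each with a sum of 5, are not shown. The sites were picked for their number of edited Cs in RBFOX2-INSCRIBE, so these counts are a description, with no test.

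**Figure D1:**
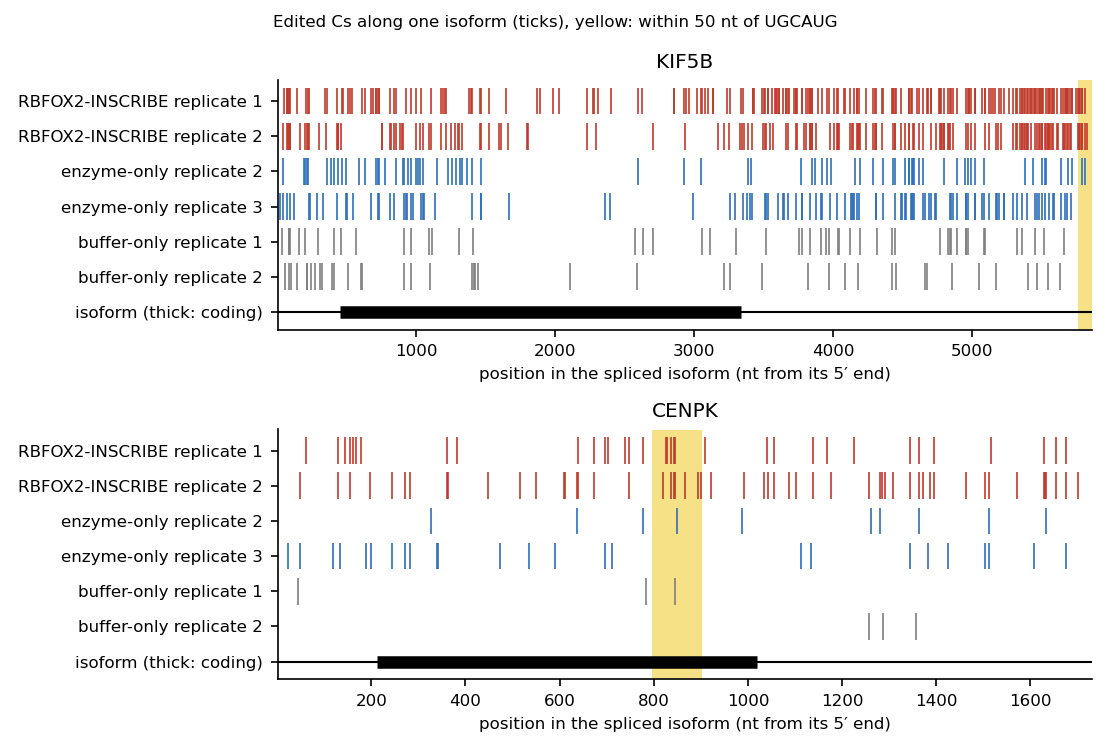
Positions of edited Cs along an isoform of KIF5B (ENST00000302418) and of CENPK (ENST00000396679), in nt from the 5′ end, with 1 line of ticks per library, the coding sequence as a thick bar and the stretch within 50 nt of UGCAUG in yellow. KIF5B has UGCAUG near its 3′ end, with 7 and 8 edited Cs within 50 nt in RBFOX2-INSCRIBE against 2, 0, 0 and 0 in the control libraries.

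Editing of members was widest in RBFOX2-INSCRIBE. Their distinct edited Cs numbered 1580 and 1725 in RBFOX2-INSCRIBE, 639 and 1071 with the enzyme alone, and 660 and 679 with buffer alone. Both RBFOX2-INSCRIBE libraries lay above all 4 control libraries, and the controls overlapped each other. The mean was 1653 ± 103 (SD, n = 2) against 855 ± 305 and 669.5 ± 13.4, ratios of 1.93 and 2.47, with a two-sided exact permutation p of 0.33, the smallest that 2 libraries against 2 allow. As a share of the edited Cs of all protein-coding genes, however, members held 0.772% and 0.824% in RBFOX2-INSCRIBE, 0.716% and 0.680% with the enzyme alone, and 0.852% and 0.893% with buffer alone. By this share the buffer-only control was highest and the enzyme-only control lowest, with no overlap between the groups and the same exact permutation p of 0.33 for each pair of groups. Shares without CENPF and KIF5B, a setting added once the data had been seen, were 0.571% and 0.623% in RBFOX2-INSCRIBE. They were 0.503% and 0.494% with the enzyme alone and 0.584% and 0.630% with buffer alone. RBFOX2-INSCRIBE then overlapped the buffer-only control, and the enzyme-only control stayed lowest.

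Given as shares, the families were ordered as follows. CENP genes held 0.196% and 0.240% of all edited Cs in RBFOX2-INSCRIBE, 0.253% and 0.208% with the enzyme alone, and 0.324% and 0.296% with buffer alone, so the first pair of groups overlapped and both lay below the buffer-only control. CENPF held 189 of 401 and 254 of 503 of these CENP edited Cs in RBFOX2-INSCRIBE. It held 113 of 226 and 179 of 327 with the enzyme alone, and 157 of 251 and 158 of 225 with buffer alone. CEP genes held 0.280% and 0.309% in RBFOX2-INSCRIBE, above 0.226% and 0.236% with the enzyme alone, and overlapping 0.239% and 0.282% with buffer alone. KIF genes held 0.297% and 0.275%, above 0.236% and 0.237% with the enzyme alone and overlapping 0.289% and 0.316% with buffer alone. Differences between the families were not tested.

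The antibody-dependent comparison, RBFOX2-INSCRIBE against enzyme-only, was made per gene with limma on log2 of editsC, the number of edited positions listed for a gene divided by the Cs in its exons, after 0.5 was added to the first. Edits on either strand were counted, and 92.7% to 97.8% of the members' edits in a library lay on the strand of the isoform. Of the 72 members, 44 reached 5 edited Cs on average over these libraries and were tested. No member passed an adjusted p of 0.05 in either direction by limma, beside 0.118% of all 5095 genes tested that were higher and 0 that were lower, and 8 members had an unadjusted p under 0.05, beside 16.6% of all genes. In 25 of the 44, both RBFOX2-INSCRIBE libraries had more edited Cs than both enzyme-only libraries, beside 51.4% of all genes tested. In 1 of the 44, CENPV, both had fewer, beside 3.73% of all genes. The members' median log2 difference was 0.96, against 0.83 over all genes tested, and 39 of 44 differences were positive, beside 4337 of all 5095. Scaling each library to the same total of edited Cs took the median of all genes to 0.05 and that of members to 0.22, with 27 of 44 positive. With edit fractions of at least 0.02 the order of the medians turned, with 0.42 over the 21 members tested, 16 of them positive, against 0.77 over all genes. Positive differences over all genes were not counted after scaling or with this minimum fraction. Leaving out a library leaves 1 in its group, and limma then takes the spread from the other group and assumes that the lone library varies alike. Without enzyme-only replicate 3, such a fit called 9 members higher (CENPK, CENPU, CEP55, CEP57, CEP97, KIF18A, KIF20B, KIF23 and KIF5B) among 1574 of all 5133 genes, with a members' median of 1.34, and without enzyme-only replicate 2 it called none of either and the members' median was 0.32.

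Against the buffer-only control, 18 of 47 tested members were higher by limma (adjusted p under 0.05) and none was lower, beside 58.4% of all 4856 genes tested that were higher and 0.0618% that were lower. At an unadjusted p under 0.05 there were 22, beside 64.5% of all genes. In 31 of the 47 both RBFOX2-INSCRIBE libraries lay above both buffer-only libraries, beside 78.9% of all genes, and in 0 below both, beside 1.11%. The members' median log2 difference was 1.26 against 1.45 over all genes. The members' share of calls, 18 of 47, and the background share stand side by side here without a test of their difference. With every library scaled to the same total, the members' median was -0.04 and that of all genes 0.08. CENPK was then the only member that passed, beside 19 of all 4856 genes that were higher. Without either RBFOX2-INSCRIBE library, fits in which the spread comes from the buffer-only control alone called no gene, while the members' medians were 1.46 and 1.21.

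The enzyme-only and buffer-only controls differed in 1 of 37 tested members, CENPK (log2 difference 2.40 ± 0.63 SE, limma adjusted p = 0.0318), beside 0.582% of all 4295 genes tested that were higher and 0.0233% that were lower. At an unadjusted p under 0.05 there were 6, beside 14.3% of all genes. Both enzyme-only libraries lay above both buffer-only libraries in 12 of the 37, beside 42.1% of all genes, and below both in 1, KIF7, beside 1.61%. The members' median log2 difference was 0.35 against 0.63 over all genes. The CENPK call was lost without any 1 of the 4 libraries, after scaling, with 1 in place of 0.5 added, and with a lower or higher minimum of edited Cs. The 3 comparisons share libraries, so their values are set side by side and not compared as independent.

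**Figure D2:**
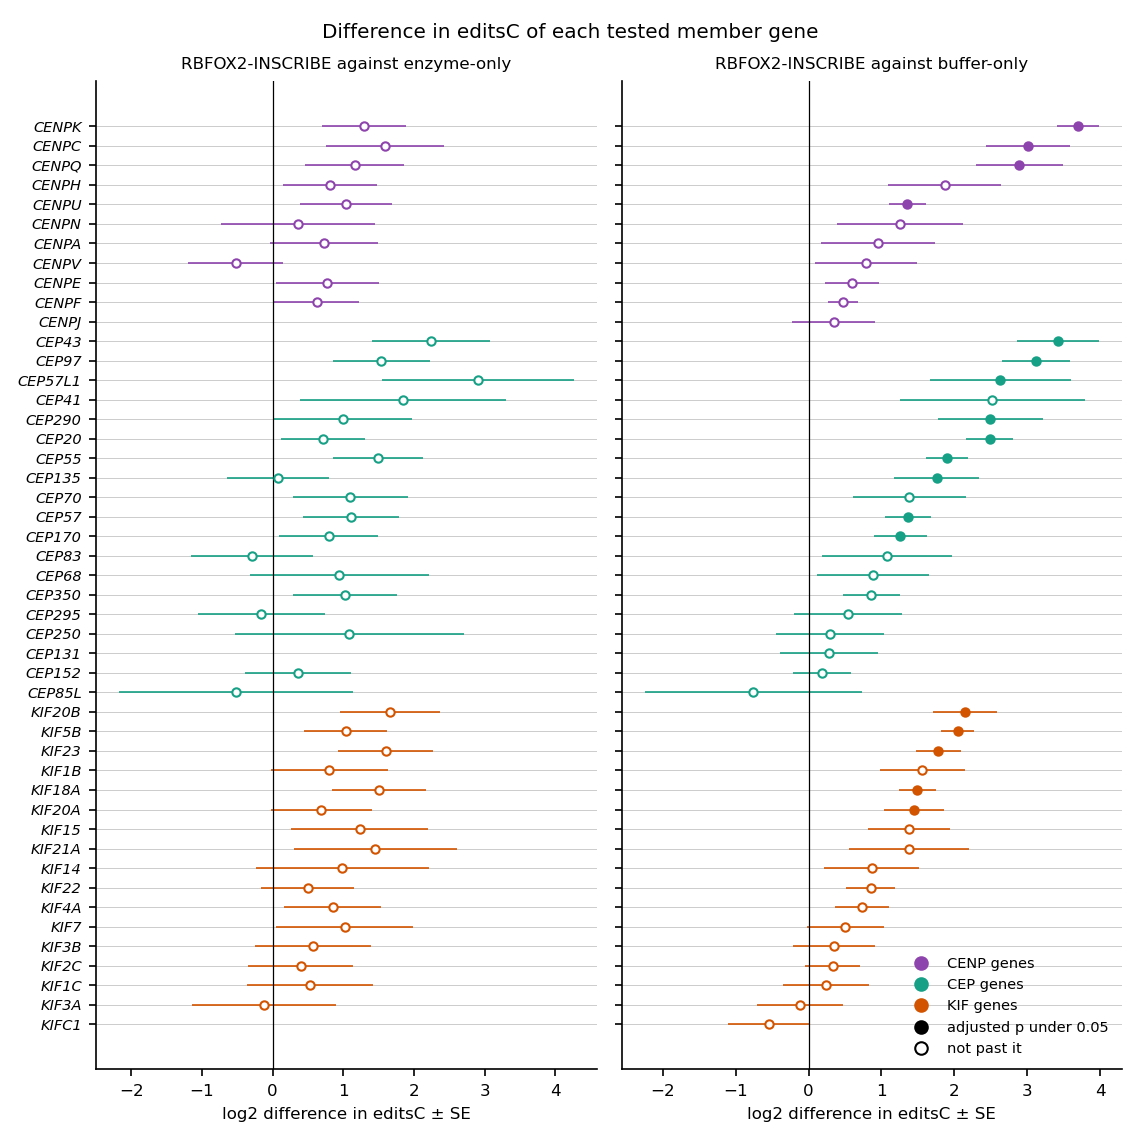
Log2 difference in editsC for each tested member gene, RBFOX2-INSCRIBE against enzyme-only on the left and against buffer-only on the right, with bars of 1 SE from limma, colours for the CENP, CEP and KIF families, and filled points for an adjusted p under 0.05. No point on the left is filled and 18 on the right are, from CEP170 at 1.26 to CENPK at 3.70.

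In the centromeric chromatin group, edits were few. CENPA, the histone variant itself, had 3 and 20 edited Cs in RBFOX2-INSCRIBE, 7 and 3 with the enzyme alone and 5 and 3 with buffer alone. A single library was high and the groups overlapped (log2 difference from enzyme-only 0.73 ± 0.76 SE, limma adjusted p = 0.561). CENPB, which binds a sequence in centromeric satellite DNA, had between 1 and 8 edited Cs in each library and was not tested.

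Of the constitutive centromere-associated network, 11 members were listed and 6 were tested in each comparison with RBFOX2-INSCRIBE. Their differences from the enzyme-only control ran from 0.36 to 1.59 on the log2 scale with a median of 1.10, and none passed. Against the buffer-only control, 4 of the 6 rose (CENPC, CENPK, CENPQ and CENPU), beside 58.4% of all genes, and CENPU was at -0.038 after scaling to equal totals. CENPK (ENSG00000123219, chr5:65517766-65563168, minus strand), which joins CENPH and CENPI in a subcomplex of the network, had 42 and 62 edited Cs of 259 in RBFOX2-INSCRIBE, 15 and 28 with the enzyme alone, and 4 and 3 with buffer alone. The groups did not overlap and stood in that order. Its editsC was 20.1% ± 5.46 (SD, n = 2), the highest of any member, against 8.30% ± 3.55 and 1.35% ± 0.273. By limma it was 1.29 ± 0.59 (SE, log2) above enzyme-only, adjusted p = 0.273, and 3.70 ± 0.29 above buffer-only, adjusted p = 6.35e-04. CENPC, which binds the CENPA nucleosome and links it to the outer kinetochore, had 21 and 26 edited Cs in RBFOX2-INSCRIBE, 5 and 11 with the enzyme alone and 2 and 3 with buffer alone. Here too the groups did not overlap (log2 difference 1.59 ± 0.84 SE from enzyme-only, limma adjusted p = 0.309, and 3.01 ± 0.58 from buffer-only, adjusted p = 0.00426). CENPQ and CENPU, of the subcomplex that also holds CENPO and CENPP, were 2.89 ± 0.60 and 1.36 ± 0.26 above buffer-only. CENPP had 7 and 8 edits in RBFOX2-INSCRIBE, 5 and 5 of them on its own strand, and none in the 4 control libraries, below the level for testing.

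At the outer kinetochore, CENPF (ENSG00000117724, chr1:214603195-214664571, plus strand), a large protein of the kinetochore corona, had the most edited Cs of any member by the mean of the 6 libraries. It had 189 and 254 edited Cs of 1786 in RBFOX2-INSCRIBE, 113 and 179 with the enzyme alone, and 157 and 158 with buffer alone. The RBFOX2-INSCRIBE libraries were highest and the controls overlapped. Its log2 difference was 0.62 ± 0.60 (SE) from enzyme-only (limma adjusted p = 0.525) and 0.48 ± 0.21 from buffer-only (adjusted p = 0.0846), and after scaling the first was -0.18. As a share of all edited Cs, CENPF was higher with buffer alone than in RBFOX2-INSCRIBE. It held 157 of 77462 and 158 of 76016 with buffer alone, against 189 of 204621 and 254 of 209296. CENPE, the kinesin-like motor of the kinetochore, had 42 and 34 edited Cs, against 14 and 34 and 28 and 22. Its enzyme-only replicate 3 equalled the lower RBFOX2-INSCRIBE library, and neither difference passed. CENPV was not in this group and was listed under other CENP proteins. It had 13 and 13 edited Cs in RBFOX2-INSCRIBE, 21 and 17 with the enzyme alone and 17 and 3 with buffer alone. It had the lowest log2 difference from enzyme-only, -0.52 ± 0.68 (SE, limma adjusted p = 0.639). Of its edits in RBFOX2-INSCRIBE only 8 and 6 lay on its own strand, against 13 and 17 with the enzyme alone, and on that strand the difference was -1.05 (limma adjusted p = 0.39).

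Among the genes of centriole duplication and assembly, 10 were listed, 6 were tested against enzyme-only and 7 against buffer-only, with 0 and 4 higher, beside 0.118% and 58.4% of all genes. CEP97 (ENSG00000182504, chr3:101724614-101770562, plus strand), which with CCP110 caps the growing centriole, had 61 and 71 edited Cs of 1330 in RBFOX2-INSCRIBE, 16 and 31 with the enzyme alone and 10 and 5 with buffer alone. The groups did not overlap. Its log2 difference was 1.54 ± 0.69 (SE) from enzyme-only, limma adjusted p = 0.272, and 3.13 ± 0.47 from buffer-only, adjusted p = 0.00157. With edit fractions of at least 0.02 the first was -0.040 and the second no longer passed (adjusted p = 0.0527 by limma). CEP57L1 (ENSG00000183137, chr6:109095507-109174418, plus strand), a paralogue of CEP57, had 25 and 21 edited Cs, 6 and 1 with the enzyme alone and 1 and 9 with buffer alone. Its log2 difference from enzyme-only, 2.91 ± 1.35 (SE), was the largest of the tested members and did not pass (limma adjusted p = 0.28), and that from buffer-only was 2.63 ± 0.97 (adjusted p = 0.0495). Single libraries moved both values: the first was 1.85 without enzyme-only replicate 3, and the second was 1.30, no longer past the threshold, without buffer-only replicate 1 and 3.96 without buffer-only replicate 2. Reads of the CEP57 paralogues were assigned by unique isoform matches, and how much they share was not tested. CEP57, a protein of the pericentriolar material, had 32 and 44 edited Cs, 8 and 36 and 17 and 12, so that 1 enzyme-only library lay within the RBFOX2-INSCRIBE range. CEP135, a protein of the centriole cartwheel, was 1.76 ± 0.59 above buffer-only (limma adjusted p = 0.0355) but only 0.08 ± 0.72 from enzyme-only, with 18 and 20 edited Cs against 16 and 20. Without buffer-only replicate 1 the first was 1.04 and did not pass. CEP152, which recruits the kinase PLK4, had 21 and 23, against 11 and 26 and 22 and 17, with all groups overlapping. CEP295, which acts in centriole growth, had 7 and 26, 11 and 21, and 7 and 12, again with all groups overlapping. CENPJ, also needed for centriole growth, had 7 and 6, 0 and 6, and 5 and 5, so that RBFOX2-INSCRIBE overlapped the enzyme-only control and lay just above the buffer-only control, a difference that did not pass (0.34 ± 0.57 SE, limma adjusted p = 0.612).

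In the group of cilium genes, 8 were listed, and 2 of the 5 tested against buffer-only rose, beside 58.4% of all genes. CEP20, a protein of ciliary base assembly, had 64 and 45 edited Cs of 402 in RBFOX2-INSCRIBE, 24 and 44 with the enzyme alone and 7 and 12 with buffer alone. Both RBFOX2-INSCRIBE libraries exceeded all controls, by 1 edited C in the nearest pair (log2 difference 0.71 ± 0.60 SE from enzyme-only, limma adjusted p = 0.474, and 2.48 ± 0.33 from buffer-only, adjusted p = 0.00103). CEP290, of the ciliary transition zone, had 18 and 23, 9 and 11, and 2 and 5, with no overlap, and was 2.49 ± 0.72 above buffer-only (limma adjusted p = 0.0209). Its only listed isoform, ENST00000676363, is of the retained-intron type, so these values do not cover its coding isoforms. CEP83, of the distal appendages, had 2 and 15, 5 and 10, and 3 and 2, and its difference from enzyme-only was -0.29 ± 0.86 with the groups overlapping.

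Of the other centrosome proteins 13 were listed and 8 tested in each comparison, with 0 higher than enzyme-only and 3 (CEP43, CEP55 and CEP170) higher than buffer-only, beside 0.118% and 58.4% of all genes. CEP43 (ENSG00000213066, chr6:166999174-167052718, plus strand), which anchors microtubules at the centrosome, had 64 and 73 edited Cs of 2902 in RBFOX2-INSCRIBE, 18 and 11 with the enzyme alone and 5 and 7 with buffer alone. The groups were well apart, with a log2 difference of 2.24 ± 0.83 (SE) from enzyme-only, limma adjusted p = 0.196, the lowest of any member, and 3.42 ± 0.56 from buffer-only, adjusted p = 0.00217. Its isoforms held up to 8 UGCAUG, more than those of any other member. CEP55, which acts at the midbody in the last step of cell division, had 43 and 57 edited Cs, 13 and 23, and 15 and 11, higher in RBFOX2-INSCRIBE than in all controls (1.49 ± 0.64 and 1.91 ± 0.29, limma adjusted p = 0.252 and 0.00165). CEP170, of the subdistal appendages, had 48 and 51, 25 and 32, and 18 and 23. It was 0.80 ± 0.70 from enzyme-only and 1.26 ± 0.36 above buffer-only (limma adjusted p = 0.495 and 0.02), and after scaling the second was -0.15. The isoforms of CEP170 differed in direction against buffer-only. ENST00000468254, which has no defined coding sequence, was at 2.10 ± 0.29 (SE), and the coding isoform ENST00000366542 was at -0.34 ± 0.61. CEP350, a large protein that docks CEP43, had 65 and 87, 27 and 50, and 47 and 36, and neither difference passed (1.02 ± 0.73 and 0.86 ± 0.39, limma adjusted p = 0.413 and 0.0946). CEP250, of the linker between centrosomes, had 14 and 12, 3 and 11, and 10 and 11. CEP85L had 13 edited Cs in RBFOX2-INSCRIBE replicate 1 and 0 in replicate 2, against 2 and 5 and 3 and 5, so that 1 library sets its value of -0.51 ± 1.66 from enzyme-only.

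Transport kinesins were led by KIF5B (ENSG00000170759, chr10:32009015-32056425, minus strand), the ubiquitous heavy chain of kinesin-1. It had 222 and 167 edited Cs of 1027 in RBFOX2-INSCRIBE, 77 and 114 with the enzyme alone and 51 and 42 with buffer alone. The groups did not overlap and stood in that order, with editsC of 18.9% ± 3.79, 9.30% ± 2.55 and 4.53% ± 0.620 (SD, n = 2 each). By limma the log2 difference was 1.04 ± 0.59 (SE) from enzyme-only, adjusted p = 0.332, and 2.04 ± 0.23 from buffer-only, adjusted p = 6.96e-04. It was the only transport kinesin of 5 tested that passed against buffer-only, beside 58.4% of all genes. KIF1B, a kinesin-3 of organelle transport, had 32 and 16, 9 and 18, and 9 and 6. KIF3A and KIF3B, which form the kinesin-2 motor of ciliary transport, gave small differences with wide errors. KIF3A had 5 and 8, 8 and 6, and 8 and 6, with a log2 difference of -0.12 ± 1.02 from enzyme-only, and KIF3B was 0.57 ± 0.82 from it. KIF1A had 8 edited Cs, all in RBFOX2-INSCRIBE replicate 2, and KIF13A 7, all in replicate 1.

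Of the mitotic kinesins, 12 were listed, 9 were tested against enzyme-only and 10 against buffer-only, and 7 of the 9 had both RBFOX2-INSCRIBE libraries above both enzyme-only libraries, beside 51.4% of all genes. None passed against enzyme-only and 4 rose against buffer-only, beside 58.4% of all genes: KIF18A, KIF20A, KIF20B and KIF23. KIF20B, which acts in cytokinesis, had 40 and 52 edited Cs in RBFOX2-INSCRIBE, 9 and 22 with the enzyme alone and 7 and 14 with buffer alone. KIF23, the kinesin of the centralspindlin complex, had 42 and 53, 10 and 23, and 15 and 12. KIF18A, which limits chromosome movement at the spindle equator, had 47 and 45, 10 and 25, and 16 and 16. In each of these genes the RBFOX2-INSCRIBE libraries lay above every control and the controls overlapped. Their log2 differences from enzyme-only were 1.66 ± 0.70, 1.60 ± 0.67 and 1.51 ± 0.66 (SE, limma adjusted p = 0.247, 0.242 and 0.263), and those from buffer-only were 2.14 ± 0.44, 1.78 ± 0.31 and 1.49 ± 0.25 (adjusted p = 0.00553, 0.00283 and 0.00258). KIF20A, a motor of the central spindle, had 18 and 25, 12 and 14, and 8 and 7, and was 1.44 ± 0.41 above buffer-only (limma adjusted p = 0.0192). KIF2C, which depolymerises microtubules at the centromere, had 13 and 15, 6 and 18, and 11 and 11, and the chromokinesin KIF4A had 35 and 41, 13 and 33, and 17 and 30, and neither passed. KIFC1, a minus-end-directed motor, had 3 and 6, 2 and 6, and 7 and 6. KIF11, the motor that separates spindle poles, had at most 4 edited Cs in any library and was not tested. The other kinesins numbered 4, of which KIF2A, a microtubule depolymerase, had 5 and 6, 0 and 0, and 2 and 6 and was not tested.

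**Figure D3:**
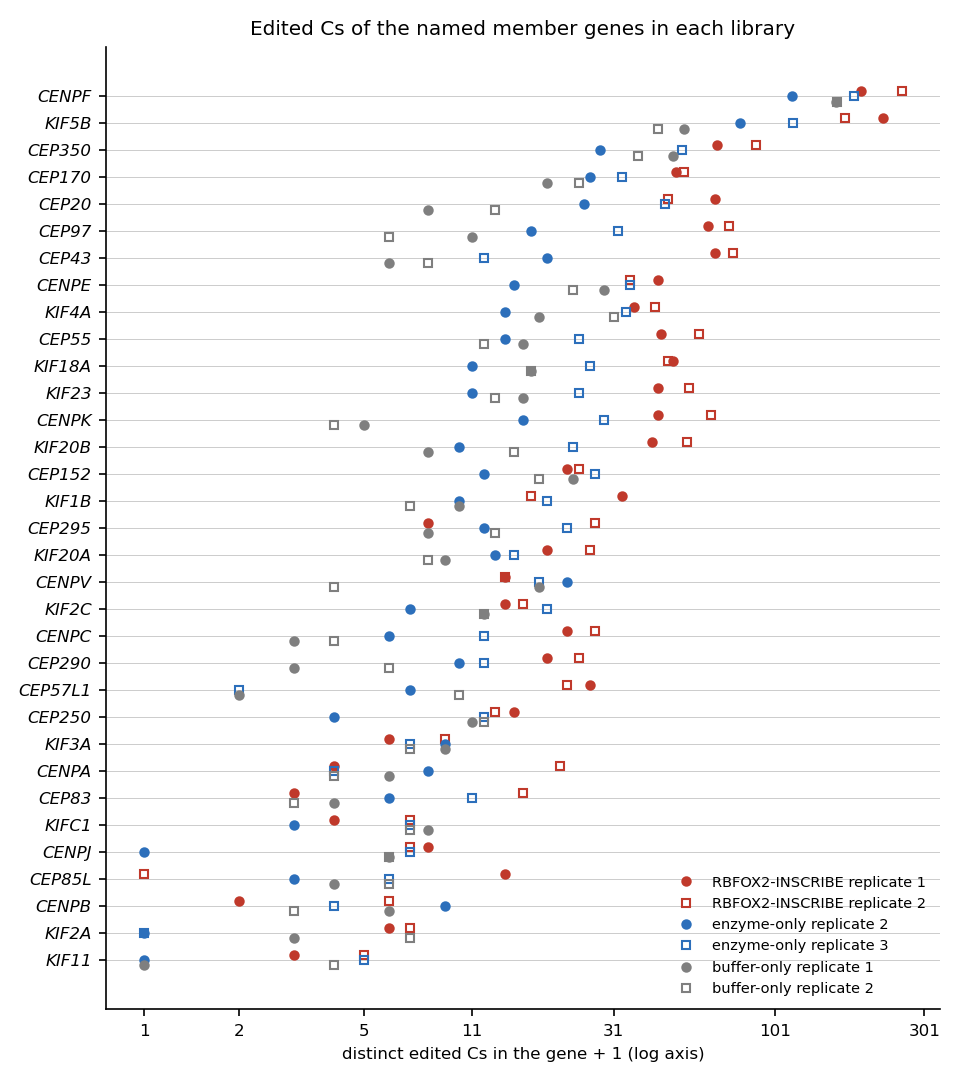
Distinct edited Cs plus 1 (log axis) of the named member genes with a listed edit, in each library, with colour for the group and filled or open points for its 2 libraries, ordered by the mean over the 6 libraries. CENPF sits between 113 and 254 edited Cs in all groups, whereas CENPK has 42 and 62 in RBFOX2-INSCRIBE and 4 and 3 with buffer alone.

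Genes of the same structures outside the members are given for comparison, beside the same 0.118% and 58.4% of all genes. Of 24 other kinetochore and centromere genes such as NDC80 and HJURP, 21 were tested against enzyme-only with 0 higher and 18 against buffer-only with 16 higher, with median log2 differences of 0.86 and 1.51. Of 25 other centrosome genes such as PCNT and PLK4, 21 were listed, with 0 of 16 and 11 of 15 higher and medians of 1.09 and 1.91. Of 18 genes of kinesin light chains, adaptors and dynein, 13 were listed, with 0 of 10 and 5 of 10 higher and medians of 0.68 and 1.26.

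Editing near UGCAUG, the sequence that RBFOX2 recognises, was set against editing at all other exonic Cs of members. Members without UGCAUG were included, so the ratio also reflects how much the members that hold UGCAUG were edited. Of 1929 member Cs within 50 nt of UGCAUG in the spliced isoform, 58 and 79 were edited in RBFOX2-INSCRIBE, 14 and 24 with the enzyme alone and 20 and 14 with buffer alone. Divided by the share of the other member Cs that were edited in the same library, which takes out the total of edits, this gave ratios of 1.66 and 2.08 in RBFOX2-INSCRIBE, 0.973 and 1.00 with the enzyme alone, and 1.43 and 0.927 with buffer alone. By this ratio RBFOX2-INSCRIBE lay above both controls without overlap, and the spread was largest in the buffer-only control. The mean ratio was 1.87 ± 0.296 (SD, n = 2) against 0.987 ± 0.0197 and 1.18 ± 0.357, with a two-sided exact permutation p of 0.33 for each comparison with RBFOX2-INSCRIBE. All other genes gave 1.81 and 1.83, 1.01 and 1.07, and 1.01 and 0.960, so the members' ratios in RBFOX2-INSCRIBE lay on both sides of those of other genes. A ratio with the expected number set by each gene's own edited Cs was added once the data had been seen. For members it was 1.79 and 2.15, 1.01 and 1.17, and 1.56 and 0.989. Without CENPF and KIF5B this ratio overlapped, at 1.85 and 2.24 against 2.11 and 1.37 with buffer alone. The first ratio then stayed apart, at 1.69 and 2.04 against 1.53 and 1.06.

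**Figure D4:**
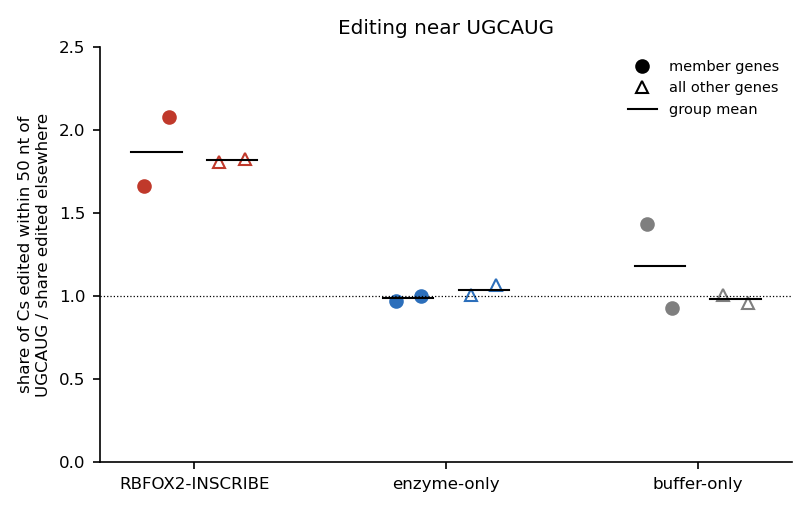
Share of Cs edited within 50 nt of UGCAUG divided by the share edited elsewhere, for each library, with circles for member genes, triangles for all other genes and bars for group means. Members reach 1.66 and 2.08 in RBFOX2-INSCRIBE, and buffer-only replicate 1 stands at 1.43.

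By family, the ratio was 2.40 and 2.87 for CEP genes in RBFOX2-INSCRIBE, 1.32 and 1.17 with the enzyme alone, and 0.604 and 0 with buffer alone, where 2 and 0 of 769 Cs were edited. For CENP genes it was 1.43 and 2.14, 0.903 and 1.23, and 1.70 and 0.703, with RBFOX2-INSCRIBE and the buffer-only control overlapping. For KIF genes it was 1.19 and 1.26, 0.703 and 0.604, and 1.46 and 1.64, highest without the enzyme. In KIF genes the buffer-only value of replicate 2 rested on KIF3B, which held all 10 of its edited Cs near UGCAUG, against at most 2 in any other library. When the expected number was set by each gene's own edited Cs, a setting added once the data had been seen, the KIF ratio in RBFOX2-INSCRIBE was 2.01 and 2.11 and in the buffer-only control 2.30 and 2.18.

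UGCAUG occurred 83 times in exons of 42 members, not counting chromosome 8 or occurrences across a splice junction. An edited C lay within 50 nt in both RBFOX2-INSCRIBE libraries at 20 of them, in both enzyme-only libraries at 3 and in both buffer-only libraries at 3. Libraries with more edits have more such sites, and this count does not correct for that. Outside the 6 sites printed above, CEP43 had 7 and 11 edited Cs near UGCAUG in RBFOX2-INSCRIBE against 1, 0, 1 and 0 in the control libraries, and CEP97 had 4 and 10 over all its sites against 0, 3, 0 and 0. The gene test was also split by UGCAUG in an exon, with no test of the difference. The median log2 difference from enzyme-only was 0.99 in the 27 tested members with one and 0.94 in the 17 without, against 0.96 and 0.61 over all genes tested. Against buffer-only the medians were 1.38 and 1.16, against 1.57 and 1.23 over all genes tested. The RBFOX2-INSCRIBE and enzyme-only libraries did not overlap, with RBFOX2-INSCRIBE higher, in 17 of the 27 and 8 of the 17. Over all genes tested this held for 57.7% of those with UGCAUG in an exon and 40.7% of those without. Of the member isoforms, 54.4% held UGCAUG, beside 55.6% of all isoforms, and their median exonic length was 4477.5 nt against 3244 nt. Introns, where RBFOX2 is known to bind near alternative exons, are covered only as far as the annotation keeps them in an isoform, as in 2 member isoforms of the retained-intron type, 1 of CEP290 and 1 of KIF1A.

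The position in the transcript also differed between groups. In 3′ UTRs of members, editsC was 2.04% and 2.10% in RBFOX2-INSCRIBE, 0.617% and 1.01% with the enzyme alone, and 0.375% and 0.428% with buffer alone. In coding sequence it was 1.47% and 1.70%, 0.724% and 1.22%, and 0.871% and 0.903%. The groups stood apart in 3′ UTRs in the order RBFOX2-INSCRIBE, enzyme-only, buffer-only, whereas in coding sequence the controls overlapped. Accordingly, 3′ UTRs held 47.3% and 44.5% of the members' edited Cs in RBFOX2-INSCRIBE, 35.3% and 34.9% with the enzyme alone, and 21.6% and 23.1% with buffer alone, beside 38.5% of their Cs. The difference of 10.8 percentage points between the means of RBFOX2-INSCRIBE and enzyme-only exceeded the spread within the groups (SD of 1.96 and 0.321, n = 2 each, two-sided exact permutation p = 0.33). Over all protein-coding genes the share was 61.2% and 62.3%, 51.1% and 55.5%, and 45.1% and 44.7%, beside 46.8% of Cs. Members thus had a lower 3′ UTR share than genes at large in every library, and less of their sequence in 3′ UTRs.

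**Figure D5:**
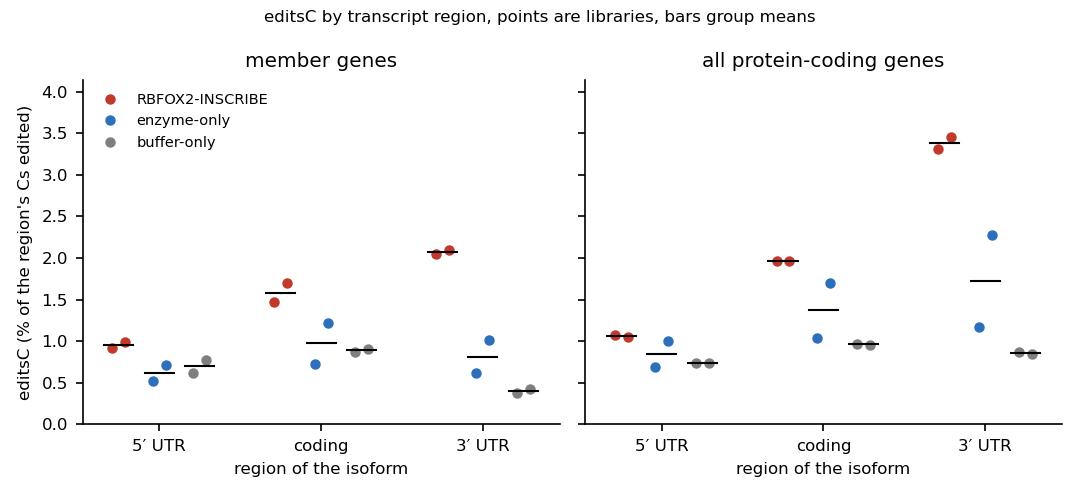
EditsC, in % of the region's Cs, in 5′ UTR, coding sequence and 3′ UTR for member genes and for all protein-coding genes, with a point per library and a bar for each group mean. In the members' 3′ UTRs RBFOX2-INSCRIBE stands at 2.04% and 2.10% and the buffer-only control at 0.375% and 0.428%.

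APOBEC1 prefers a C that follows A or U, and the base before the edited C separated the groups as well. A or U preceded 72.3% and 75.1% of the members' edited Cs in RBFOX2-INSCRIBE, 61.3% and 67.7% with the enzyme alone, and 43.9% and 42.3% with buffer alone, beside 49.7% of all their Cs. The groups did not overlap, and the buffer-only control lay below the share among all Cs. The same shares over all genes were 73.5% and 74.8%, 62.0% and 69.2%, and 42.0% and 42.6%.

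Positions edited in both libraries of a group were counted next. Of 5277 distinct member sites, 4408 were listed in 1 library only. Sites in both libraries of a group numbered 316 in RBFOX2-INSCRIBE, 68 with the enzyme alone and 40 with buffer alone, which is 10.6% and 6.06% of the smaller library in the controls and 316 of 1580 in RBFOX2-INSCRIBE. In both RBFOX2-INSCRIBE libraries and nowhere else there were 204 sites, with 41 in KIF5B, 26 in CENPF, 15 in CEP43 and 14 each in CENPK and CEP55. Libraries and genes with more edits can share more sites, and these counts do not correct for that. The same counts were not made over all genes, so they are a description of members only. The sites with the highest edit fraction in the lower library are shown, except a CEP57L1 site tied with the last one, with the edited C in capitals and 12 bases on each side (hg38, transcript strand).
CEP57L1 3′ UTR, chr6:109163882-109163906, plus strand: aataaatttacaCttgatcattttt
CEP152 3′ UTR, chr15:48741017-48741041, minus strand: accgggagatgaCtattgcaattag
CEP43 3′ UTR, chr6:167052106-167052130, plus strand: cttgatggctcaCaatctccttctc
CEP57L1 3′ UTR, chr6:109163625-109163649, plus strand: tttatcttactaCtttataactttt
Each of these Cs follows an A and lies in a 3′ UTR. The first CEP57L1 site was edited in 8.33% and 8.11% of reads and lay 19 nt from the UGCAUG printed above for this gene. The CEP152 site was edited in 7.69% and 22.2%, the CEP43 site in 11.1% and 7.14%, and the second CEP57L1 site in 9.09% and 6.25%. They were chosen for their high fractions, and the members' median edit fractions were 0.847% in both RBFOX2-INSCRIBE libraries, 1.16% and 0.731% with the enzyme alone, and 0.627% and 0.671% with buffer alone. The isoform with the CEP152 site holds no UGCAUG, and the CEP43 site and the second CEP57L1 site lay 2280 and 233 nt from the nearest one. The number of reads behind each fraction is not given, and a high fraction can rest on few reads. A ranking by fraction can therefore favour thinly read positions, so these sites need not be the most strongly edited.

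At the level of isoforms, limma called 0 of 49 tested member isoforms against enzyme-only (10 at an unadjusted p under 0.05), beside 0.0522% of all 5746 isoforms higher and 15.6% unadjusted, and 20 of 50 higher and 0 lower against buffer-only (25 at an unadjusted p under 0.05), beside 57.0% of all 5431 higher, 0.0737% lower and 63.3% unadjusted. Of the members, 14 had 2 listed isoforms and 2 had 3. The difference between the 2 most edited isoforms could be tested in 5 of them (CENPK, CENPV, CEP170, CEP43 and KIF20B), and none passed by limma, beside 0 of all 599 genes. At an unadjusted p under 0.05 there was 1, KIF20B, beside 4.51% of all. In KIF20B, ENST00000260753 had 32 and 37 edited Cs in RBFOX2-INSCRIBE and 9 and 20 with the enzyme alone, whereas ENST00000371728 had 11 and 21 against 0 and 3. The log2 difference of the first isoform less that of the second was -2.25 ± 0.82 (SE, limma adjusted p = 0.775). In CEP170, ENST00000468254, which has no defined coding sequence in the annotation, had 37 and 44 against 8 and 23, and the coding isoform ENST00000366542 had 11 and 7 against 17 and 9 (2.00 ± 1.00 SE, limma adjusted p = 0.775). In CEP43, ENST00000622353 had 19 edited Cs in RBFOX2-INSCRIBE replicate 1 and 10 in enzyme-only replicate 2 and none in the other libraries, so that 1 library of each group decides its value.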

How the data were processed

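Fixed HEK293T cells were edited in situ and full-length cDNA was read on a PacBio Revio, 1 SMRT Cell per library. The deposited values are edit fractions: per the study's methods, the authors made consensus reads (ccs 8.0.0, skera 1.2.0, lima 2.9.0, refine 4.1.1), mapped them to hg38 with pbmm2 1.13.0, kept reads with a quality score of at least 20 and uniquely assigned isoforms (IsoQuant 3.3.0), called C-to-U edits, and removed dbSNP positions and edits shared by all replicates and samples. The files give no read numbers, so depth is not known and no counting interval could be given.

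From these, distinct edited Cs were counted per gene and isoform over GENCODE 44 exons, edits on both strands included, with Python 3.11.15 and pysam 0.24.0. The tests were limma 3.58.1 (trend and robust settings, Benjamini-Hochberg over all protein-coding features, 0.5 added, mean of at least 5 edited Cs) and exact permutation over libraries. On simulated data of this size limma found large differences and missed most small ones. Their spread was set in advance and not estimated from these libraries, so the sensitivity reached here cannot be read from them. Named members were those with the largest, lowest or most edited values, most edits near UGCAUG or most divergent isoforms, and a list by role. Others were named after their values were seen. Members and lists were chosen with earlier results of these data known. Alternatives were other added values and minimums, scaling to equal totals, a fit of all 3 groups, a replicate block, edit fractions of at least 0.02, the isoform's strand, other windows, and leaving out each library.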

Additional observations from a re-analysis of the deposited data

How the results depend on the processing

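The number of edited Cs depended on each library's total, and depth, which would set how firmly low values are read, is unknown. With 2 libraries a group, 1 library can decide a call. The cause of the changes below was not tested, except that scaling removes the difference in totals by construction.

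Scaled to the same total, the members' median log2 difference was 0.22 for RBFOX2-INSCRIBE against enzyme-only, -0.038 against buffer-only and -0.26 for enzyme-only against buffer-only, with 0, 1 and 0 members higher, beside 0 of 5095, 19 of 4856 and 0 of 4295 genes. Of single genes against enzyme-only, CENPA was then at -0.023, CENPE -0.012, CENPF -0.18, CEP152 -0.42, CEP20 -0.079, KIF20A -0.091 and KIF2C -0.37. Against buffer-only, CENPU was at -0.038, CEP57 at -0.037 and CEP170 at -0.15. Scaled isoform medians were 0.21 and 0.053 against enzyme-only and buffer-only, with 0 called in the second. Scaled differences in edited Cs were -16.8 (CENP) for RBFOX2-INSCRIBE minus enzyme-only, -125 (CENP), -22.7 (KIF) and -101 (all members) for RBFOX2-INSCRIBE minus buffer-only, and -108 (CENP), -39.5 (CEP), -89.2 (KIF) and -237 (all members) for enzyme-only minus buffer-only.

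With edit fractions of at least 0.02, 4 of 23 members and 4 of 20 isoforms were higher than buffer-only, beside 519 of 1936 genes and 450 of 1758 isoforms, the members' medians were 0.42, 1.19 and 0.39 in the 3 comparisons against 0.77, 1.73 and 0.92 over all genes, the isoform medians were 0.58 and 1.84 against enzyme-only and buffer-only, and CEP350, CEP97 and KIF2C were at -0.062, -0.040 and -0.96 against enzyme-only. The UGCAUG ratio of enzyme-only minus buffer-only was then 0.24, and 0.030 with a window of 20 nt. Between the controls, the reported limma fit called 1 member, CENPK, with 6 members at an unadjusted p under 0.05, beside 14.3% of all genes. With 1 added, 0 members were called, beside 13 of 4295 genes higher. The same held with a minimum mean of 1 (beside 0 of 6592) or 10 (beside 2 of 2809). It also held with fractions of at least 0.02 (beside 0 of 1134) and with the replicate block (beside 5 of 4295).

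Leaving out each library in turn gave 0 to 9 members higher than enzyme-only (median 0.32 to 1.34; 9 without enzyme-only replicate 3, beside 1574 of 5133 genes, and 0 of all genes otherwise), 0 to 16 higher than buffer-only (median 1.05 to 1.46; 0 of members and of all genes without either RBFOX2-INSCRIBE library, and 13 and 16 without buffer-only replicate 1 and 2, beside 2055 of 5027 and 2041 of 5058 genes) and 0 between the controls (median 0.16 to 0.82). For isoforms it gave 0 to 13 (median 0.30 to 1.34; 13 beside 1827 of 5789 isoforms) and 0 to 19 (median 1.16 to 1.46; 19 beside 2244 of 5731, and 4 beside 193 of 5026 without RBFOX2-INSCRIBE replicate 1). The lone library of a group is assumed to vary like the other group. Genes whose sign changed against enzyme-only ranged from -0.24 to 0.97 (CEP152), -1.07 to 0.75 (CEP295), -1.60 to 1.03 (CEP83), -1.08 to 1.86 (CEP85L), -0.35 to 1.15 (KIF2C) and -0.43 to 0.19 (KIF3A), and isoform pairs from -1.18 to 0.75 (CENPK) and -0.54 to 4.97 (CEP43). The UGCAUG ratio of enzyme-only minus buffer-only ran from -0.445 to 0.0596, and edited Cs of enzyme-only minus buffer-only from -12 to 89 (CENP), -21 to 141 (KIF) and -30.5 to 401.5 (all members).

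A replicate block left 0, 17 and 0 members called in the 3 comparisons, beside 34 of 5095, 2581 of 4856 and 5 of 4295 genes, and 0 isoform pairs. The titles number the enzyme-only libraries 2 and 3 and the characteristics 1 and 2, and same-numbered libraries had correlations of deviations of 0.117, 0.04 and -0.0213 over 4837 genes, so the numbers do not establish pairs.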
